A study of Mus musculus with 3 samples.

Results

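Of the 27998 genes in the deposited gene list, 10 were followed here because they are textbook transcriptional targets of the tumour suppressor p53: Cdkn1a, Gdf15, Eda2r, Bax, Mdm2, Ccng1, Phlda3, Trp53inp1, Zmat3 and Sesn2. Each was matched by its gene symbol and had 1 row. Niche cells of mouse bone marrow were sorted and sequenced by droplet single-cell RNA profiling, with 1 library in each of the 3 groups. The aGVHD library (acute graft-versus-host disease) came from recipients that were irradiated, given marrow and also given spleen cells of female C57BL/6 mice. The BMT library (bone marrow transplantation) came from recipients that were irradiated and given marrow only. In both, the recipients were female CB6F1 mice (CD45.2+), irradiated with 4.0 Gy in each of 2 doses, and the nucleated marrow cells, injected 4 hours later, came from B6.SJL mice (CD45.1+). Untreated female CB6F1 mice gave the WT library. Live cells were sorted with Calcein AM and DAPI after staining for CD45, a lineage mix and CD71 to remove blood cells. Mice per library, collection day, ages and the marrow donors' sex are not stated in the sources used here. No group was irradiated without a graft, so irradiation and marrow transfer cannot be told apart in these libraries.

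Ionising radiation breaks DNA, and the kinases that sense the breaks stabilise p53, which binds paired copies of a short recognition motif near its target genes and raises their transcription. The products of these targets stop the cell cycle, promote apoptosis, restrain growth signalling and, through Mdm2, return p53 to a low level. In irradiated marrow most blood cells are lost and replaced from the graft, while stromal and endothelial cells of the host remain.

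Promoter letters that carry the p53 recognition motif are shown first, since they belong to the genes independently of the counts. RefSeq promoters on GRCm38.p6 were found for 8 of the 10 genes, 10 promoters in all. The 250 bases before each start were searched on both strands for the p53 half-site of 10 bases, named only because it needs degenerate letters. A half-site was present in 4 of the 10 promoters, against 7.13% of 32851 promoters in the table. A full site, here a pair of half-sites at most 13 bases apart with at most 1 mismatch in the pair, was present in 2 of the 10, against 0.505%. Capitals mark the matches, and each line runs 5′ to 3′ on the strand of the gene.
Cdkn1a, chr17:29090729-29090978, plus strand: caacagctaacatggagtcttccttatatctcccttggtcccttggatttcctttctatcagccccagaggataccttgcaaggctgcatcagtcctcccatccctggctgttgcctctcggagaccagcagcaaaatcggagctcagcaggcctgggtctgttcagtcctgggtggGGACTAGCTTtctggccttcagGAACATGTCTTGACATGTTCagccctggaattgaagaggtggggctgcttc
Ccng1, chr11:40755287-40755536, minus strand: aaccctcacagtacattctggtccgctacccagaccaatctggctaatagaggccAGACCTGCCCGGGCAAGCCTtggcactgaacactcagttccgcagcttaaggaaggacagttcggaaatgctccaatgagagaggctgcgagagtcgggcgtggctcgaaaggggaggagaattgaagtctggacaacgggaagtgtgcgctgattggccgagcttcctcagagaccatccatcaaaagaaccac
Mdm2, chr10:117710759-117711008, minus strand: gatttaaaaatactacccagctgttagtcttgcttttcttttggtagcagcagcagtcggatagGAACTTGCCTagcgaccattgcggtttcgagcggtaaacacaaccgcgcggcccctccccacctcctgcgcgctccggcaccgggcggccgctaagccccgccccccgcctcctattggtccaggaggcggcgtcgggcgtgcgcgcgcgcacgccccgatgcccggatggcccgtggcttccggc
Bax, chr7:45466899-45467148, minus strand: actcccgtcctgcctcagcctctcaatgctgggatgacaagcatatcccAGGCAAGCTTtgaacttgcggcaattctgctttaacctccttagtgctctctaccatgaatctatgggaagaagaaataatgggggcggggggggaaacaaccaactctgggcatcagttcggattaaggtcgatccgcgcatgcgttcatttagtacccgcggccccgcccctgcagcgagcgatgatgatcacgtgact
In Cdkn1a 2 pairs that share a half-site were found, 1 with 0 mismatches and a spacer of 12 bases, starting 73 bases before the RefSeq start, and 1 with 1 mismatch and a spacer of 0 bases, starting 51 bases before it. In Ccng1 the pair was adjacent, had 1 mismatch and started 195 bases before the start. Mdm2 and Bax each held a lone half-site, 186 bases before the start in Mdm2 and 201 in Bax. The other Cdkn1a promoter (chr17:29093519-29093768) and the promoters of Gdf15, Eda2r, Phlda3 and Sesn2 held no match in this window, and Trp53inp1 and Zmat3 had no entry. A match is a match of letters and says nothing of binding in these cells.

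Counts were unique molecular identifiers (UMIs), which count captured RNA molecules. The libraries held 67439098 UMIs for aGVHD, 44219063 for BMT and 86575425 for WT. Barcodes of at least 1000 UMIs and 500 genes with under 10% mitochondrial UMIs gave 5568 cells in aGVHD, 3621 in BMT and 7129 in WT, and pairs of libraries shared 8 to 11 of these barcodes, against 2.97 to 5.84 at random. Each cell was put into a class by a score over marker genes, none of them a member. The limits of the score were set on these data, so a class is a range of a score, not a proven cell type, and is called "-like". All 15 endothelial, all 13 LepR stromal and 18 or 19 of the 19 fibroblast markers were detected in over 10% of their class in each library. Cells near the gate made up 8.93% of aGVHD, 3.71% of BMT and 3.52% of WT endothelial-like cells, and 2.68% (aGVHD), 1.52% (BMT) and 2.34% (WT) of LepR stromal-like cells. Likely doublets stayed in and were left out only as an alternative. Stromal classes together held 2185 cells in aGVHD, 2049 in BMT and 5380 in WT, and haematopoietic classes 2330 in aGVHD, 1199 in BMT and 1074 in WT, although the sort was meant to remove blood cells.

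Sex-linked RNA differed between the stromal and the blood classes of the transplanted libraries. In stromal classes an Xist UMI was found in 85.6% of aGVHD, 88.8% of BMT and 95.9% of WT cells. A Y-linked UMI was found in 1.05% of aGVHD and 1.95% of BMT stromal cells and in 0 of 5380 WT cells, which allows a share of up to 0.0558%. In haematopoietic classes a Y-linked UMI was found in 40.5% of aGVHD and 65.6% of BMT cells and in 0 of 1074 WT cells, which allows up to 0.279%. The stromal cells of all 3 libraries thus carried the sex-linked RNA of the female recipients, and most BMT blood cells carried Y-linked RNA.

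**Figure D1:**
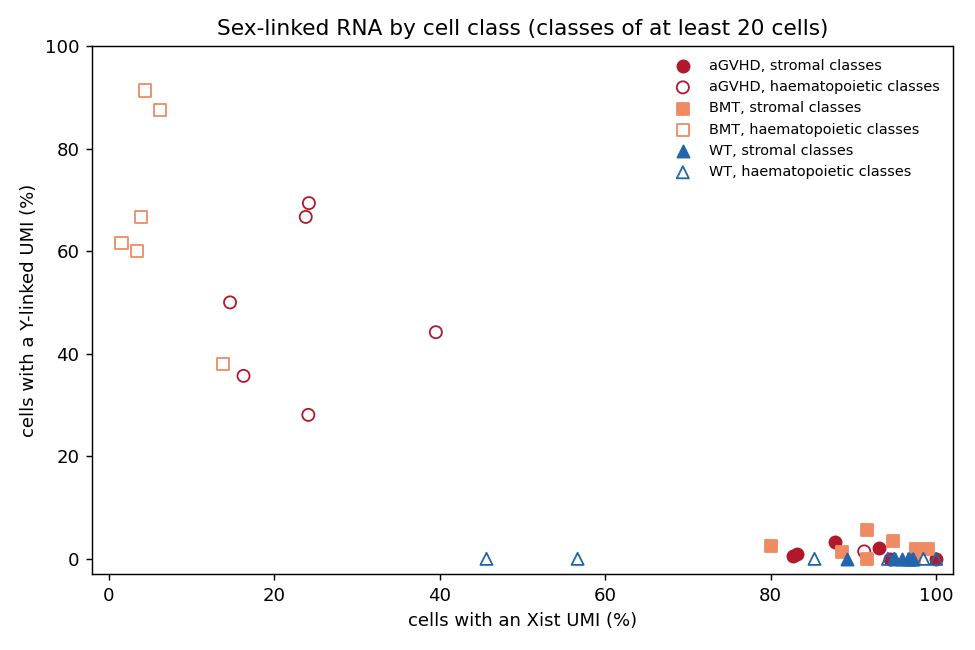
Percent of cells with an Xist UMI (x axis) against percent with a Y-linked UMI (y axis) for each cell class of at least 20 cells, with filled symbols for stromal and open symbols for haematopoietic classes. Over all stromal classes together, a Y-linked UMI was found in 1.95% of BMT cells, against 65.6% over the haematopoietic classes of BMT.

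Each group had 1 library, so differences have no replicate check and carry no p-value. Levels are UMIs summed over the cells of a class, per 1000000 UMIs of that class (CPM), with exact Poisson 95% intervals, and ratios carry exact conditional 95% intervals. All intervals cover counting error only, not the spread between mice. A gene was called higher or lower in a class when both libraries together held at least 50 of its UMIs, with a ratio of at least 2 or at most 0.5 and an interval excluding 1. Classes of at least 50 cells in both libraries were compared.

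Gene positions below are those of the GRCm38 annotation, and all 10 genes are protein-coding. In endothelial-like cells all 10 p53 targets were called higher in BMT than in WT, where 4.92% of 8815 measured genes were. The median log2 ratio of the 10 was 1.77, beside 0.00 for all measured genes. Cdkn1a (ENSMUSG00000023067, chr17:29090976-29100727, plus strand), which encodes the cell cycle inhibitor p21, stood at 1542 CPM in aGVHD, 1369.8 CPM in BMT (1336 to 1405) and 354 CPM in WT (329.7 to 379), and its BMT over WT ratio was 3.87 (3.59 to 4.17). It was detected in 91.1% of aGVHD, 91.4% of BMT and 49.4% of WT cells, and in 85.0% (aGVHD), 84.5% (BMT) and 39.7% (WT) when each cell was thinned to 2000 UMIs. In neutrophil-like cells, thinned likewise, the shares were 13.3% (aGVHD), 14.3% (BMT) and 14.5% (WT). Median depth was 2770 (aGVHD), 4534 (BMT) and 3697 (WT) UMIs in endothelial-like and 7184 (aGVHD), 4254 (BMT) and 6011 (WT) UMIs in neutrophil-like cells. At equal depth most endothelial-like cells of the irradiated mice had a Cdkn1a UMI, and under 14.5% of neutrophil-like cells of either irradiated library did.

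Effectors of cell death were higher in BMT as well. Bax (ENSMUSG00000003873, chr7:45461697-45466898, minus strand), whose product permeabilises mitochondria, was at 542 CPM in aGVHD cells and 542 CPM in BMT cells, against 185 CPM in WT cells (2.94-fold, 2.64 to 3.27 for BMT over WT). Eda2r (ENSMUSG00000034457, chrX:97333840-97377216, minus strand), which encodes a receptor of the tumour necrosis factor receptor family, had 250 UMIs in aGVHD, 230 in BMT and 7 in WT, or 61.0 (aGVHD), 52.1 (BMT) and 3.13 (WT) CPM (16.7-fold, 7.96 to 41.9 for BMT over WT). Trp53inp1 (ENSMUSG00000028211, chr4:11156431-11174379, plus strand), which encodes a nuclear partner of p53 that also takes part in autophagy, was at 72.4 (aGVHD), 50.8 (BMT) and 21.9 (WT) CPM and gave the smallest of the 10 ratios (2.32-fold, 1.70 to 3.23). Only 13 of the 8815 measured genes had a larger ratio than Eda2r, and 300 a larger one than Trp53inp1.

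Both feedback genes were higher in BMT too. Mdm2 (ENSMUSG00000020184, chr10:117688875-117710758, minus strand), which encodes the ubiquitin ligase that marks p53 for destruction, was at 119 CPM in aGVHD cells and 129 CPM in BMT cells, against 43.8 CPM in WT cells (2.95-fold, 2.38 to 3.69). Ccng1 (ENSMUSG00000020326, chr11:40748552-40755311, minus strand), which encodes cyclin G1, was at 77.1 (aGVHD), 71.6 (BMT) and 17.4 (WT) CPM (4.11-fold, 2.94 to 5.89). For both, the aGVHD and BMT levels lay close together and well above that of WT.

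Regulators of growth, RNA and stress completed the set. Gdf15 (ENSMUSG00000038508, chr8:70629393-70632456, minus strand), a secreted stress cytokine and also a target of the stress factor ATF4, was at 687 CPM in aGVHD cells and 448 CPM in BMT cells, against 42.4 CPM in WT cells (10.5-fold, 8.58 to 13.1). It had a UMI in 35.1% of aGVHD, 26.4% of BMT and 4.68% of WT cells after thinning, so most cells of each library showed none at that depth. Phlda3 (ENSMUSG00000041801, chr1:135766119-135769136, plus strand), which encodes an inhibitor of Akt signalling, was at 330.5 (aGVHD), 282 (BMT) and 80.9 (WT) CPM (3.49-fold, 2.98 to 4.10). Zmat3 (ENSMUSG00000027663, chr3:32334792-32366014, minus strand), which encodes an RNA-binding protein, was at 24.6 (aGVHD), 36.5 (BMT) and 13.4 (WT) CPM (2.72-fold, 1.83 to 4.16). Sesn2 (ENSMUSG00000028893, chr4:132492032-132510501, minus strand), whose product restrains mTORC1 and which ATF4 also induces, was at 34.6 (aGVHD), 29.7 (BMT) and 8.94 (WT) CPM (3.32-fold, 2.07 to 5.62). The order of the libraries was aGVHD, BMT, WT from high to low for Gdf15, Phlda3 and Sesn2, and BMT, aGVHD, WT for Zmat3. For Sesn2 the interval of aGVHD over BMT held 1 (1.17, 0.914 to 1.49).

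In LepR stromal-like cells, the reticular cells that supply Cxcl12 and stem cell factor to blood stem cells, 7 of the 10 were called higher in BMT than in WT, against 5.84% of 10646 measured genes. Their median log2 ratio was 1.42, beside a shift of 0.14 for all measured genes, and 7 were also called relative to that shift. Cdkn1a was at 632 CPM in aGVHD cells and 665 CPM in BMT cells, against 259.8 CPM in WT cells (2.56-fold, 2.42 to 2.71 for BMT over WT). Eda2r had 86 UMIs in aGVHD, 120 in BMT and 2 in WT, a BMT over WT ratio of 42.5 whose interval ran from 11.5 to 355. Ccng1 was at 102.8 (aGVHD), 110.3 (BMT) and 23.8 (WT) CPM (4.64-fold, 3.89 to 5.57) and was found in 17.0% of aGVHD, 16.8% of BMT and 4.34% of WT cells after thinning. The receptor and the cyclin gene were thus scarce in WT cells of this class.

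The Akt inhibitor gene Phlda3 was at 285 (aGVHD), 331 (BMT) and 109.6 (WT) CPM in LepR stromal-like cells (3.02-fold, 2.77 to 3.29 for BMT over WT). Mdm2 was at 73.5 (aGVHD), 79.2 (BMT) and 35.9 (WT) CPM (2.21-fold, 1.89 to 2.58). Zmat3 was at 31.4 (aGVHD), 30.5 (BMT) and 9.31 (WT) CPM (3.27-fold, 2.44 to 4.45). Trp53inp1, another of the called genes, was at 44.3 (aGVHD), 76.3 (BMT) and 27.1 (WT) CPM (2.81-fold, 2.37 to 3.36), with the aGVHD level between those of BMT and WT, as for Phlda3 and Mdm2.

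Bax, Gdf15 and Sesn2 were under the 2-fold boundary in LepR stromal-like cells. Bax was at 193 (aGVHD), 230.0 (BMT) and 119 (WT) CPM (1.93-fold, 1.77 to 2.11 for BMT over WT). Gdf15 was at 386 (aGVHD), 213 (BMT) and 128 (WT) CPM (1.66-fold, 1.53 to 1.81), and Sesn2 at 21.8 (aGVHD), 20.7 (BMT) and 14.0 (WT) CPM (1.48-fold, 1.14 to 1.95). Gdf15 was detected in 13.1% of thinned BMT and 13.1% of thinned WT cells, so WT cells of this class already held it at a share well above the 4.68% of WT endothelial-like cells. Cells of this class were deeper in BMT than in WT, with medians of 14656 UMIs in BMT and 5770 in WT.

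**Figure D2:**
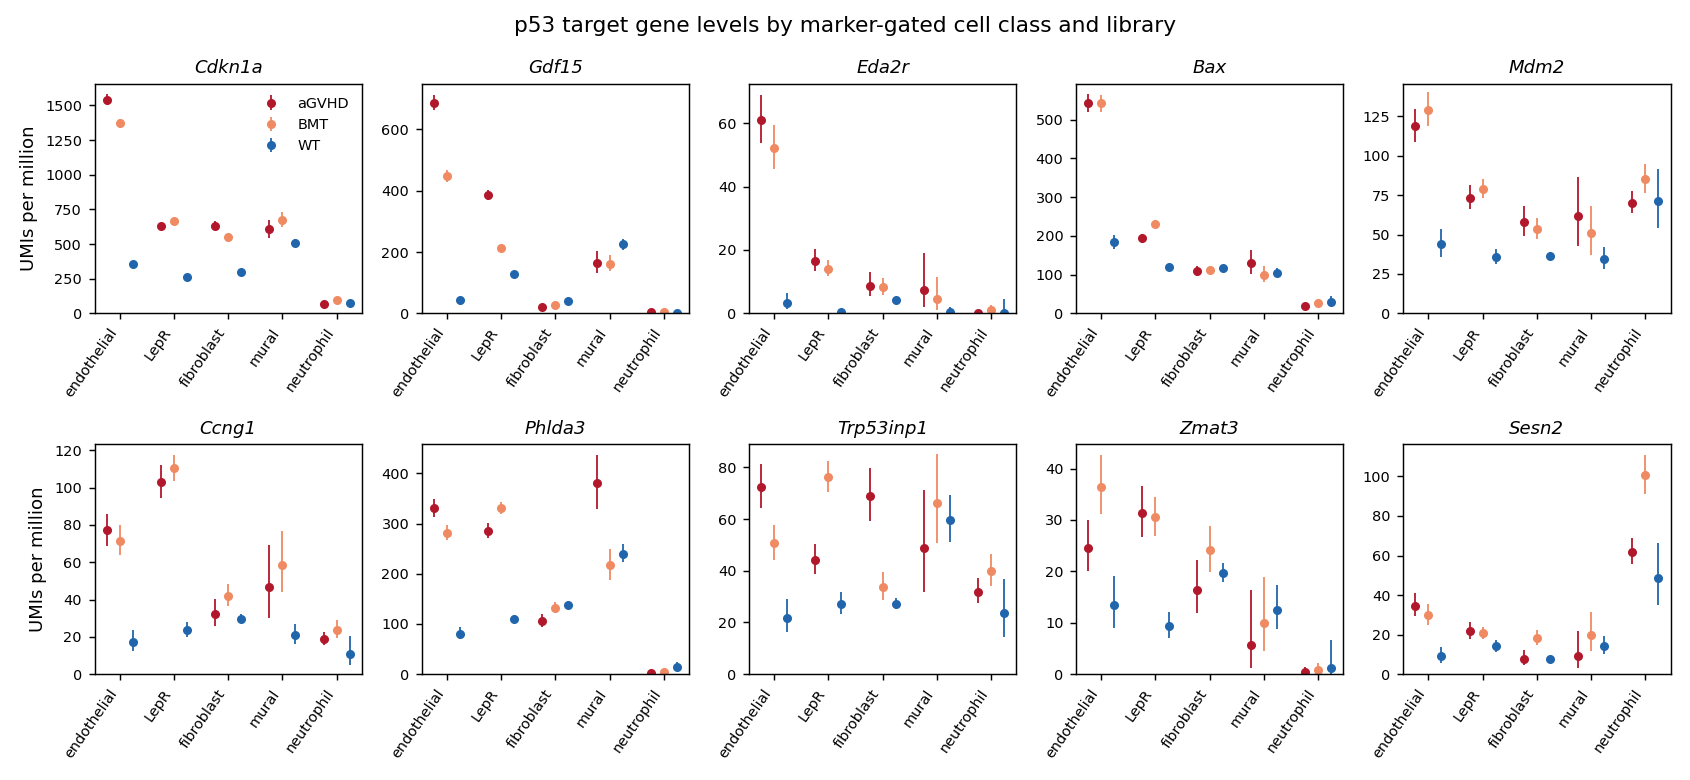
Level of each p53 target in CPM (y axis) in 5 cell classes (x axis) for aGVHD, BMT and WT, with bars for the exact Poisson 95% interval. In endothelial-like cells the aGVHD and BMT points lie above the WT point for each gene, with Cdkn1a at 1542 (aGVHD), 1369.8 (BMT) and 354 (WT) CPM.

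Fewer members passed the boundary in fibroblast-like cells, where 7 of the 10 ratios of BMT over WT were above 1, with a median log2 ratio of 0.41 beside -0.01 for all measured genes. Only 1 member, Sesn2, was called higher in BMT than in WT, against 3.30% of 11583 measured genes, at 18.3 CPM in BMT against 7.90 CPM in WT (2.31-fold, 1.77 to 3.0). Cdkn1a was at 633 CPM in aGVHD cells and 554 CPM in BMT cells, against 301 CPM in WT cells (1.84-fold, 1.76 to 1.92 for BMT over WT), and Eda2r at 8.30 CPM in BMT against 4.37 CPM in WT (1.90-fold, 1.28 to 2.77). The levels of Bax and Phlda3 gave ratios of 0.966 (0.879 to 1.06) and 0.957 (0.877 to 1.04). Gdf15 was at 27.6 CPM in BMT against 39.3 CPM in WT, a ratio of 0.703 (0.582 to 0.845).

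The difference between classes was measured directly as a ratio of ratios, with a 95% interval from a normal approximation of counting error on the log scale. The endothelial-like ratio exceeded the fibroblast-like one, with the interval above 1, for 9 of the 10 genes. The ratio of ratios was 15 for Gdf15 (11.4 to 19.7), 3.64 for Phlda3 (3.05 to 4.35), 3.04 for Bax (2.64 to 3.49) and 2.11 for Cdkn1a (1.93 to 2.30). Sesn2 was the exception at 1.44 (0.841 to 2.45). The LepR stromal-like ratio exceeded the fibroblast-like one for the other 9 genes, 3.27 for Ccng1 (2.59 to 4.14) among them, and lay below it for Sesn2, at 0.641 (0.445 to 0.923).

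Endothelial-like and LepR stromal-like ratios differed most for Gdf15, with a ratio of ratios of 6.34 (5.08 to 7.92). Sesn2 (2.24, 1.31 to 3.83), Bax (1.52, 1.33 to 1.74), Cdkn1a (1.51, 1.38 to 1.66) and Mdm2 (1.34, 1.03 to 1.74) were also larger in endothelial-like cells. For Eda2r, Ccng1, Phlda3, Trp53inp1 and Zmat3 the interval held 1.

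Mural-like cells, the pericytes and smooth muscle cells of vessels, had 1 of 8 measured members called higher in BMT than in WT, against 3.64% of 7053 genes. This was Ccng1, at 58.6 CPM in BMT against 20.9 CPM in WT (2.80-fold, 1.90 to 4.12). Cdkn1a was at 676 CPM in BMT against 509 CPM in WT there (1.33-fold, 1.21 to 1.46). In osteolineage-like cells 1 of 9 measured members was called, Mdm2 at 75.1 CPM in BMT against 24.2 CPM in WT (3.11-fold, 2.44 to 3.99), against 2.35% of 7914 genes. Only 69.3% of the BMT and 58.6% of the WT osteolineage-like cells fell into a cluster of that name, against 97.2% or more of endothelial-like, LepR stromal-like and fibroblast-like cells.

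**Figure D3:**
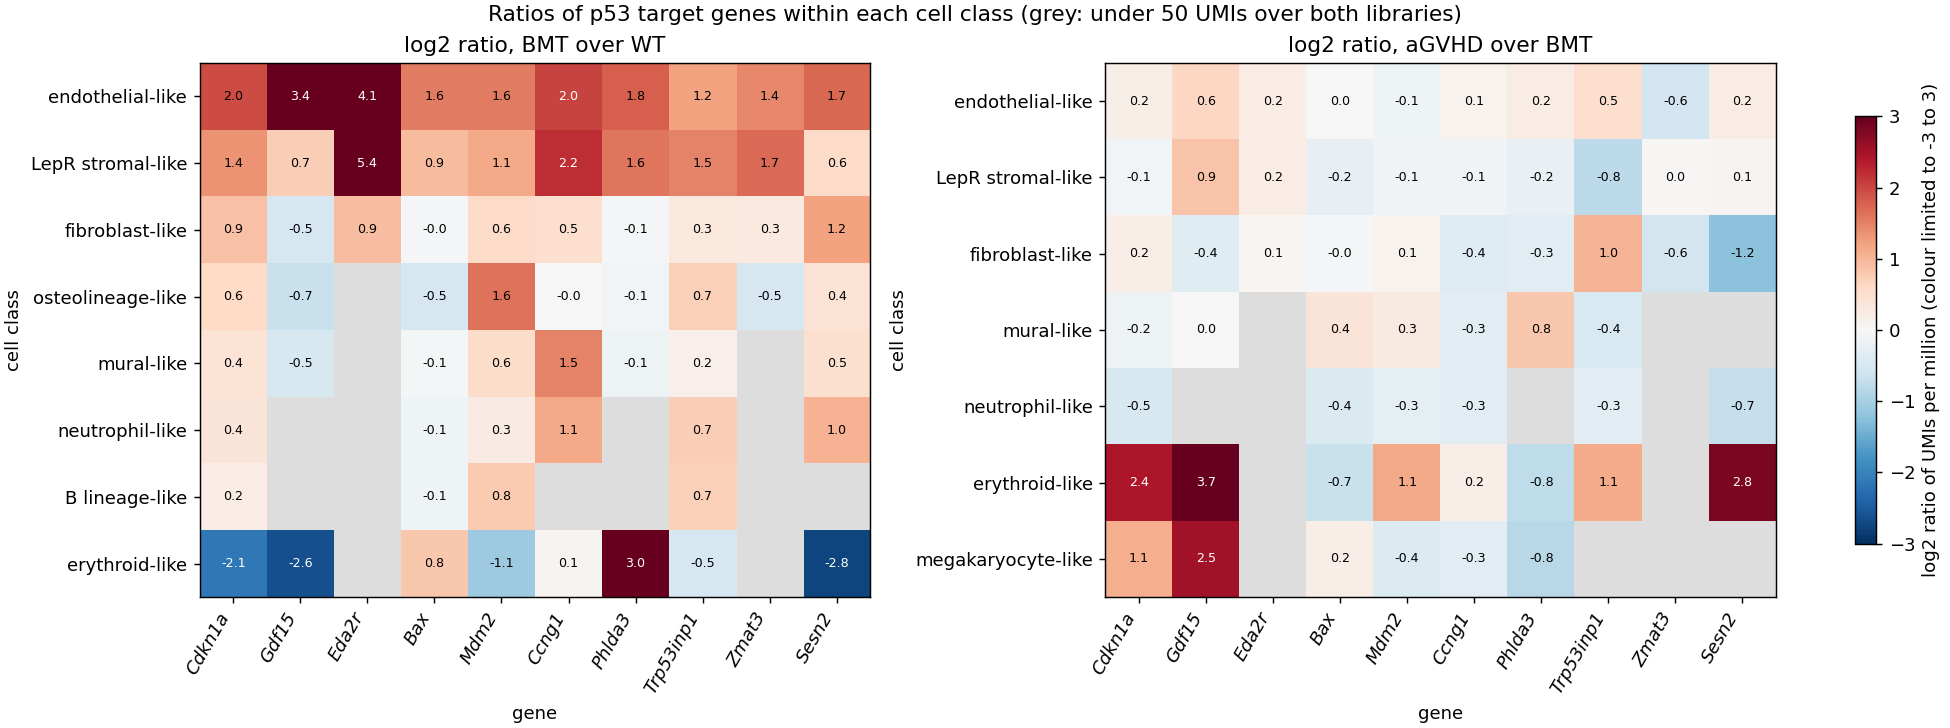
Log2 ratio of CPM (colour) for each p53 target in each compared cell class, BMT over WT on the left and aGVHD over BMT on the right, with grey for genes under 50 UMIs. On the left all 10 genes pass the 2-fold boundary in endothelial-like and 7 in LepR stromal-like cells, and on the right none does in these classes.

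Several members were often detected in the same cell. At 2000 UMIs per cell, endothelial-like cells had a UMI for a mean of 2.99 of the 10 genes in aGVHD, 2.80 in BMT and 1.06 in WT, with an SD over cells of 1.51 (aGVHD), 1.55 (BMT) and 0.899 (WT). At least 3 of the 10 were detected in 60.4% of aGVHD (57.1 to 63.7, exact binomial), 55.3% of BMT (51.5 to 59.0) and 5.67% of WT cells (3.62 to 8.38). LepR stromal-like cells had means of 1.77 (aGVHD), 1.93 (BMT) and 1.03 (WT), with at least 3 in 26.8% of aGVHD, 29.8% of BMT and 6.89% of WT cells. In fibroblast-like cells the means were 1.33 (aGVHD), 1.31 (BMT) and 1.08 (WT), and in neutrophil-like cells 0.551 (aGVHD), 0.689 (BMT) and 0.506 (WT), so the libraries lay much closer together in those classes. Mural-like cells had 1.84 (aGVHD), 1.70 (BMT) and 1.60 (WT). Chondrocyte-like cells, with only 36 in aGVHD and 36 in BMT, had 1.49 (aGVHD), 1.66 (BMT) and 0.713 (WT). At least 3 were detected in 11.4% (aGVHD), 22.9% (BMT) and 2.02% (WT) of them. Muscle-like cells, 24 in BMT, had 1.625 (BMT) and 0.699 (WT). The difference was thus not confined to endothelial-like and LepR stromal-like cells. Thinning left out 282 of 1154 aGVHD, 77 of 781 BMT and 106 of 512 WT endothelial-like cells, and 11 (aGVHD), 20 (BMT) and 40 (WT) LepR stromal-like cells. Without thinning the means were 3.58 (aGVHD), 4.05 (BMT) and 1.70 (WT) in endothelial-like and 4.45 (aGVHD), 4.79 (BMT) and 2.26 (WT) in LepR stromal-like cells.

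**Figure D4:**
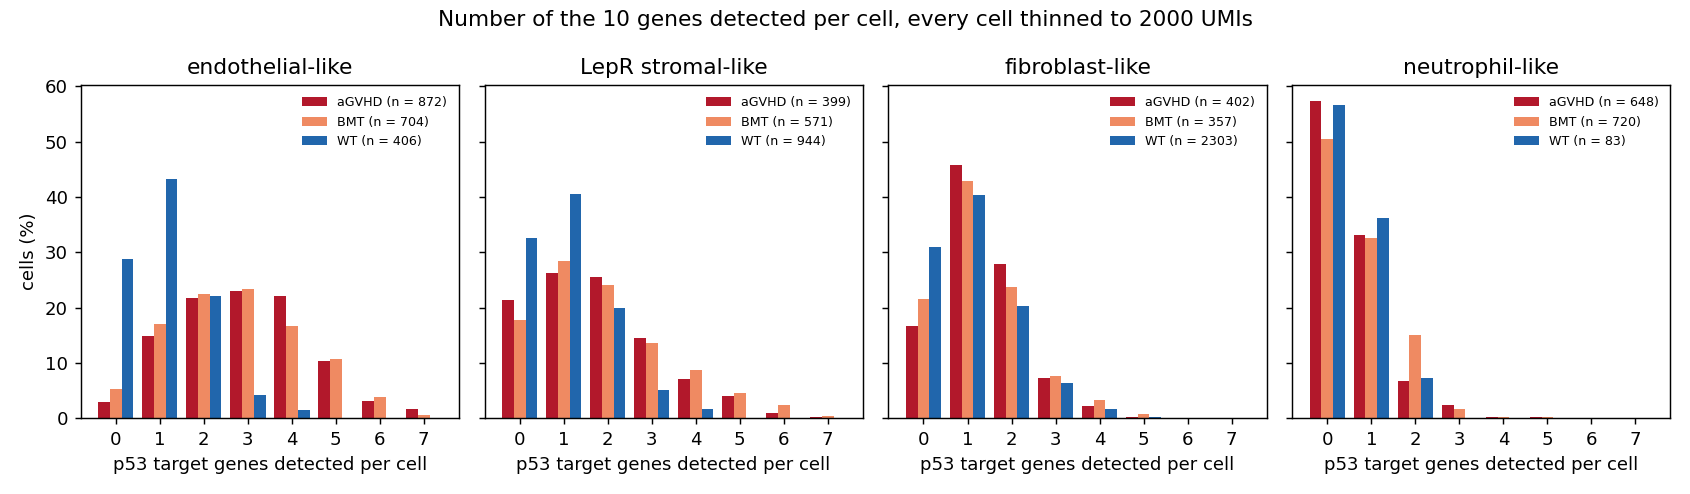
Distribution of cells (y axis) by number of the 10 p53 targets detected in a cell thinned to 2000 UMIs (x axis), for aGVHD, BMT and WT in 4 cell classes. Endothelial-like cells of aGVHD and BMT peak at 3 genes and those of WT at 1.

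The make-up of the endothelial-like class differed between libraries. Cells scoring higher for capillary markers than for venular and sinusoidal ones, 1068 in aGVHD, 686 in BMT and 260 in WT, were named capillary-type. All other cells of the class, 86 in aGVHD, 95 in BMT and 252 in WT, were named venular-or-sinusoidal-type. These include any cells with equal scores. Within capillary-type cells 9 of 10 members were called higher in BMT than in WT, beside 4.70% of all measured genes, and Trp53inp1 was just under the boundary (1.99-fold, 1.31 to 3.15). Gdf15 had 1812 UMIs in BMT and 17 in WT there (26.6-fold, 16.6 to 45.8), and Ccng1 282 UMIs in BMT and 9 in WT (7.83-fold, 4.07 to 17.3). Eda2r had 214 UMIs in BMT and 1 in WT, a ratio of 53.5 with an interval of 9.50 to 2123.

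Within venular-or-sinusoidal-type cells 4 of the 6 members with enough UMIs were called higher in BMT than in WT, beside 5.36% of all measured genes. They were Gdf15 (3.98-fold, 3.02 to 5.28), Cdkn1a (2.73-fold, 2.41 to 3.1), Mdm2 (2.28-fold, 1.61 to 3.22) and Ccng1 (2.14-fold, 1.27 to 3.63). Bax (1.67-fold, 1.37 to 2.03) and Phlda3 (1.36-fold, 0.997 to 1.84) were not called. The point estimates of these 6 genes were larger in capillary-type cells, most of all for Gdf15.

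**Figure D5:**
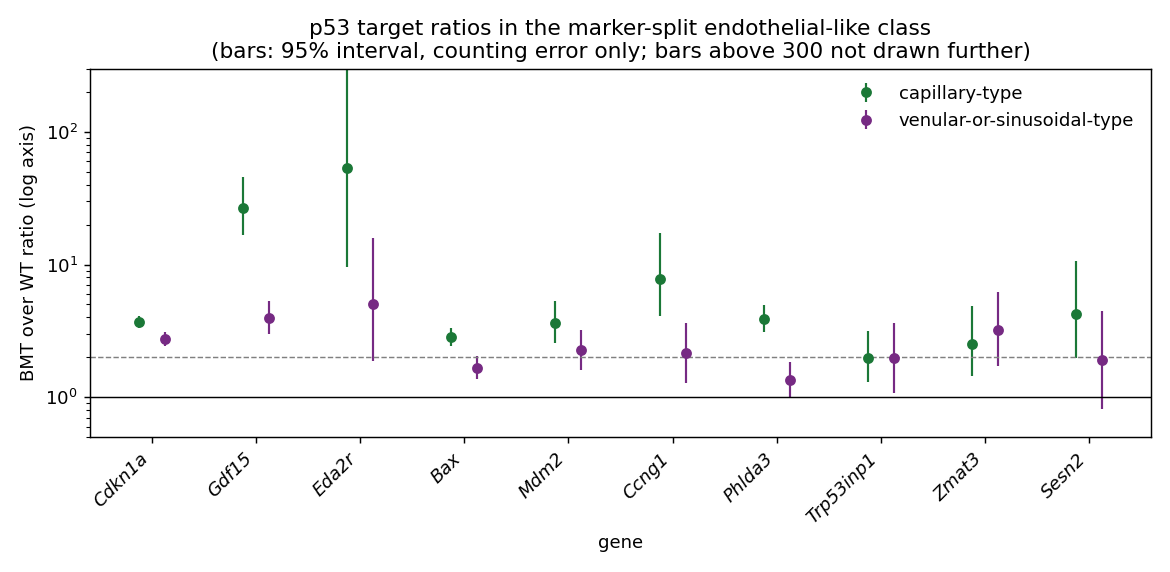
BMT over WT ratio of each p53 target (y axis, log scale) in capillary-type and venular-or-sinusoidal-type endothelial-like cells, with bars for the exact 95% interval of counting error. Gdf15 reaches 26.6 in capillary-type and 3.98 in venular-or-sinusoidal-type cells.

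Over all stromal classes together 8 of 10 members were called higher in BMT than in WT, beside 9.76% of 13795 measured genes, with Cdkn1a at 720.0 CPM in BMT against 278 CPM in WT (2.59-fold, 2.53 to 2.65). Zmat3 (1.76) and Sesn2 (1.92) were below the boundary. Over all haematopoietic classes Phlda3 (2.58-fold, 1.85 to 3.62) and Sesn2 (3.90-fold, 3.28 to 4.65) were called higher in BMT than in WT, beside 16.4% of 10565 genes, and Gdf15 lower (0.129, 0.0803 to 0.197), beside 10.5%. Cdkn1a there gave 1.36. Between aGVHD and BMT, Gdf15 was the 1 member called over all stromal classes (2.22-fold higher, beside 3.46% of 12722 genes). Over all haematopoietic classes Gdf15 was called higher in aGVHD (4.32-fold, beside 5.83% of 10923 genes) and Sesn2 lower (0.461, beside 17.5%). The classes take different shares of these sums in each library, and that part in the pooled ratios was not tested.

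Between aGVHD, with its added spleen cells, and BMT, all 10 members differed by under 2-fold in endothelial-like and in LepR stromal-like cells. In endothelial-like cells 0 of 10 members were called in either direction between aGVHD and BMT, while 2.43% of 9178 measured genes were called higher and 4.17% lower. Cdkn1a gave a ratio of 1.13 (1.09 to 1.17) and Bax of 1.0 (0.944 to 1.06). The farthest from 1 were Gdf15 (1.54, 1.45 to 1.63) and Zmat3 (0.675, 0.521 to 0.871). All 10 intervals lay between 0.5 and 2.

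LepR stromal-like cells had 0 of 10 called between aGVHD and BMT, beside 2.66% of 10548 genes called higher and 6.67% lower. The farthest from 1 were Gdf15 (1.82, 1.70 to 1.94) and Trp53inp1 (0.581, 0.497 to 0.676). In fibroblast-like cells Trp53inp1 was called higher in aGVHD, against 3.11% of 9145 genes, at 68.9 CPM in aGVHD against 33.8 CPM in BMT (2.04-fold, 1.64 to 2.53). With a stricter marker gate its ratio was 1.75 and the call was lost. As first gated, the LepR stromal-like over fibroblast-like ratio of ratios of Trp53inp1 was 0.285 (0.220 to 0.370). Sesn2 was called lower in fibroblast-like cells of aGVHD, beside 4.02% of genes, at 7.83 CPM in aGVHD against 18.3 CPM in BMT.

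The comparison of aGVHD with WT shares its libraries with those above. In it, aGVHD had 9 of 10 members called higher in endothelial-like cells (5.71% of 8662 genes) and 7 in LepR stromal-like cells (6.29% of 10022 genes). Zmat3 was the endothelial-like exception at 1.84. The LepR stromal-like genes below the boundary were Bax (1.62), Trp53inp1 (1.63) and Sesn2 (1.56), while Gdf15 was 3.02-fold higher (2.78 to 3.29). Fibroblast-like cells had 2 called higher (4.32% of 11424 genes), Cdkn1a (2.10-fold, 1.99 to 2.22) and Trp53inp1 (2.52-fold, 2.12 to 2.99), with a median log2 ratio over the 10 of 0.06.

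Blood cells gave another picture. In neutrophil-like cells 2 of the 6 members with enough UMIs were called higher in BMT than in WT, while 17.0% of 4617 measured genes were. They were Sesn2, at 101 CPM in BMT against 48.7 CPM in WT (2.06-fold, 1.5 to 2.92), and Ccng1, with 96 UMIs in BMT and 9 in WT (2.21-fold, 1.12 to 4.97). The class was not alike in both libraries, with a median marker score of 0.374 in BMT and 0.625 in WT. In it 3 of 3 measured cell cycle genes were called lower in BMT, beside 11.8% of genes. The part of this make-up in the ratios was not tested. Cdkn1a was at 97.4 CPM in BMT against 74.9 CPM in WT (1.30-fold, 0.995 to 1.73), and Mdm2 at 85.1 CPM in BMT against 71.3 CPM in WT (1.19-fold, 0.905 to 1.60). Droplets of at most 100 UMIs, which hold free RNA, had 457 (BMT) and 147 (WT) CPM of Cdkn1a. They had 106 (BMT) and 39.0 (WT) CPM of Mdm2, and 28.7 (BMT) and 12.9 (WT) CPM of Sesn2. Neutrophil-like cells of BMT thus lay below those droplets for Cdkn1a and Mdm2 and above them for Sesn2. Haemoglobin genes alone put the share of free RNA in neutrophil-like cells at 33.9% in BMT and 11.4% in WT. That share of the droplets' 457 CPM of Cdkn1a exceeds the 97.4 CPM of the BMT cells. The BMT estimate is thus too high for this gene. With these shares subtracted and negative counts set to 0, 1 of 3 measured members was called higher, beside 20.2% of all measured genes. No conclusion is drawn from that count. B lineage-like cells had 0 of 4 measured members called, beside 10.1% of 5458 genes called higher.

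The erythroid-like class, of which BMT held 65 cells, was not alike in BMT and WT, with a median marker score of 0.241 in BMT and 0.405 in WT. The median log2 ratio of all measured genes was 0.41 there, and the part of make-up was not tested. In these cells 4 of 8 measured members were called lower in BMT than in WT, beside 8.39% of 6972 genes. They were Cdkn1a (4 UMIs in BMT and 141 in WT; ratio 0.228, 0.0612 to 0.597), Mdm2 (11 UMIs in BMT and 189 in WT; 0.468, 0.229 to 0.856), Gdf15 (1 UMI in BMT and 50 in WT) and Sesn2 (2 UMIs in BMT and 109 in WT). Phlda3 was called higher, at 25.6 CPM in BMT against 3.19 CPM in WT (8.03-fold, 4.43 to 14.6), beside 21.7% of genes. Against BMT, aGVHD erythroid-like cells were called higher in Cdkn1a (5.37-fold, 2.07 to 19.8), Gdf15, Mdm2, Trp53inp1 and Sesn2, beside 4.94% of 7625 genes. Megakaryocyte-like cells had Cdkn1a at 192 CPM in aGVHD against 90.5 CPM in BMT (2.12-fold, 1.65 to 2.75), and Gdf15 with 58 UMIs in aGVHD and 3 in BMT (5.71, 1.86 to 28.5), both called higher beside 3.89% of 5752 genes.

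The aGVHD library held blood cells with either kind of sex-linked RNA, which were set against each other in a comparison chosen after seeing the data. Of its haematopoietic cells 438 had an Xist UMI and no Y-linked UMI, and 900 had a Y-linked UMI and no Xist UMI. Cdkn1a was at 148 CPM in the Xist cells and 72.3 CPM in the Y-linked cells (2.05-fold, 1.85 to 2.27), and Gdf15 at 26.5 CPM in the Xist cells and 3.54 CPM in the Y-linked cells (7.48-fold, 5.22 to 10.9). With Phlda3 and Zmat3, 4 of 9 measured members were called higher in the Xist cells, beside 8.22% of 9522 genes. The mix of blood classes was not the same in both sets.

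Within erythroid-like cells of aGVHD, 161 of the Xist and 368 of the Y-linked kind, Cdkn1a (2.40-fold, 1.71 to 3.35), Gdf15 (4.51-fold, 2.73 to 7.56) and Trp53inp1 (2.12-fold, 1.59 to 2.83) were called higher in the Xist cells, beside 2.47% of genes. Bax gave 0.673 and Mdm2 1.25. In neutrophil-like cells, 83 of the Xist and 324 of the Y-linked kind, no member was called, beside 1.54% of genes, and Cdkn1a gave 1.51. Female recipients and female spleen donors cannot be told apart by Xist. It was also present in empty droplets of aGVHD, at 292 CPM, and the part of free RNA in this split was not tested.

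Droplets of at most 100 UMIs, which hold free RNA rather than a cell, contained the same genes. The 10 genes together made up 762.2 CPM there in aGVHD and 1213 CPM in BMT, against 474 CPM in WT, and Cdkn1a alone 259 (aGVHD), 457 (BMT) and 147 (WT) CPM. In endothelial-like cells of the irradiated mice the point estimates lay above the empty droplets of the same library for all 10 genes. They did so in aGVHD by 1.93 times for Sesn2 up to 9.42 times for Eda2r, and in BMT by 1.04 times for Sesn2 up to 8.18 times for Eda2r. Sesn2 in BMT, at 29.7 CPM in the cells, lay inside the interval of the droplets (23.3 to 34.9 CPM). In WT, Gdf15, Phlda3 and Sesn2 were below that level, at 0.727, 0.894 and 0.693 of it. LepR stromal-like cells of BMT were above the empty droplets for 8 of the 10, with Mdm2 at 0.750 and Sesn2 at 0.723 of that level. Haemoglobin and granule genes put the share of free RNA at 1.35% (aGVHD), 1.97% (BMT) and 1.22% (WT) in endothelial-like and 2.52% (aGVHD), 1.51% (BMT) and 0.810% (WT) in LepR stromal-like cells. With that share subtracted, 10 members in endothelial-like and 7 in LepR stromal-like cells were still called higher in BMT than in WT.

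A list of other p53 targets, chosen like the members with earlier results of these data known, was past the boundary in part. In endothelial-like cells 6 of 24 measured were called higher in BMT than in WT and 0 lower, with a median log2 ratio of 0.50. Of all measured genes 4.92% were called higher and 4.31% lower there. In LepR stromal-like cells 9 of 29 were called higher and 2 lower, with a median of 0.63, beside 5.84% and 2.40% of all genes. In fibroblast-like cells 1 of 30 was called higher and 1 lower, near the shares of all genes, 3.30% and 3.04%. The exonuclease gene Aen was at 52.8 CPM in BMT against 8.04 CPM in WT in endothelial-like cells (6.56-fold, 4.06 to 11.3) and at 38.6 CPM in BMT against 11.6 CPM in WT in LepR stromal-like cells (3.32-fold, 2.56 to 4.36). Dcxr, which encodes a sugar reductase, was also higher in both (11.1-fold, 6.26 to 21.8, and 2.49-fold, 2.06 to 3.02). The death receptor gene Fas was called in LepR stromal-like cells (3.67-fold, 2.69 to 5.11) and gave 1.19 in endothelial-like cells. Btg2, an anti-proliferative gene, gave 1.60 in endothelial-like and 0.918 in LepR stromal-like cells. Between aGVHD and BMT 0 of 25 were called in endothelial-like cells, and in LepR stromal-like cells 0 of 29 were called higher and 3 lower. Of all genes 2.43% were called higher and 4.17% lower in endothelial-like cells, and 2.66% higher and 6.67% lower in LepR stromal-like cells.

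RNA of p53 itself did not follow its targets. Trp53 was at 66.2 CPM in BMT against 94.3 CPM in WT in endothelial-like cells (0.702, 0.586 to 0.842) and at 71.7 CPM in BMT against 64.7 CPM in WT in LepR stromal-like cells (1.11, 0.974 to 1.26). Of 10 measured genes of p53 and its regulators, the checkpoint kinase gene Chek2 was the 1 called in endothelial-like (3.55-fold, 2.44 to 5.32) and in LepR stromal-like cells (2.12-fold, 1.14 to 4.21). Of all genes 4.92% and 5.84% were called higher in these classes. Chek2 was called lower in aGVHD than in BMT in both, at 0.332 (0.249 to 0.436) and 0.312 (0.126 to 0.672), the latter on 8 UMIs in aGVHD and 42 in BMT. Of all genes 4.17% and 6.67% were called lower in that comparison. The kinase gene Atm was also called lower there in endothelial-like cells (0.414, 0.262 to 0.638) and gave 1.44 in LepR stromal-like cells.

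Genes of the cell cycle that p53 activation is known to repress were not called lower in BMT than in WT in endothelial-like or LepR stromal-like cells. In LepR stromal-like cells 5 of 8 measured were called higher in BMT than in WT, beside 5.84% of all measured genes. The topoisomerase gene Top2a, 1 of them, was at 19.7 CPM in BMT against 6.15 CPM in WT (3.19-fold, 2.23 to 4.69). In endothelial-like cells 0 of 6 were called, beside 4.92% of genes called higher and 4.31% lower. In fibroblast-like cells 2 of 7 were called lower and 0 higher, beside 3.04% of genes called lower. Of 5 in osteolineage-like cells 2 were called lower, beside 4.94% of genes, and 1 higher, beside 2.35%. Over all haematopoietic classes 16 of 16 were called lower, beside 10.5% of genes. That pool held 744 neutrophil-like and 65 erythroid-like cells of 1199 in BMT, but 92 and 544 of 1074 in WT. Within erythroid-like cells 2 of 16 were called lower, beside 8.39% of genes, and 9 ratios were above 1. In B lineage-like cells 5 of 13 were called lower, beside 5.53%, and in neutrophil-like cells 3 of 3, beside 11.8%. The part of make-up in the pooled count was not tested. Over all stromal classes 0 of 15 were called lower and 1 higher, beside 9.76% of genes called higher. Between aGVHD and BMT, 5 of 6 were called lower in endothelial-like cells, beside 4.17% of genes. Top2a was at 14.1 CPM in aGVHD against 34.4 CPM in BMT there (0.411, 0.298 to 0.559), while Cdkn1a gave 1.13.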

How the data were processed

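The authors deposited UMI counts per gene and barcode for 3 unfiltered libraries, made with Cell Ranger 3.1.0 per the file headers, and with Cell Ranger, Seurat and the build mm10 per the submitters' processing notes. Filtered cells and cell types of the authors were not used here. Cells (at least 1000 UMIs, at least 500 genes, under 10% mitochondrial UMIs) were classed by a marker score of at least 0.15, 1.5 times or more that of any other class, and 3 or more detected markers, limits that were set on these data. UMIs were summed per class and library. Ratios, calls and intervals were computed with Python 3.11.15, numpy 2.4.6, scipy 1.17.1 and pandas 2.3.3, and clusters with scanpy 1.11.5. The counting step was tested on simulated data. Depth sets the counting intervals (95%), which do not cover the spread between mice. Doublet scores left out 248 aGVHD, 105 BMT and 407 WT cells in an alternative only.

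The members and lists were chosen with earlier results of these data known. Named beside the 10 members were, of each other list, the 3 genes with the most UMIs and genes called in endothelial-like or LepR stromal-like cells, up to 6 per list, and the 5 genes most like the members' mean. Not every gene so named is described. Alternatives changed the filters, gate, clustering, scaling, free RNA, doublets, endothelial type and fold boundary.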

Additional observations from a re-analysis of the deposited data

Results flagged for a closer look

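Members that were called lower in 1 cell class and higher in another under the same comparison were set apart. In erythroid-like cells BMT over WT ratios were 0.228 for Cdkn1a, 0.161 for Gdf15, 0.468 for Mdm2 and 0.147 for Sesn2, while all 4 genes were called higher in endothelial-like cells of BMT. These ratios rest on 4, 1, 11 and 2 UMIs in the 65 BMT cells. The erythroid-like class also differed in median marker score, 0.241 in BMT and 0.405 in WT. In fibroblast-like cells Sesn2 gave 0.429 in aGVHD over BMT, while it was called higher in erythroid-like cells. With 1 library per group these differences between classes were not tested.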

How the results depend on the processing

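Over 14 alternatives and 72 member ratios, 868 ratios were recomputed: 812 stayed within the interval of the original ratio and 56 moved beyond it. Of the 868, 19 differed from the original by over 1.5 times. Among ratios that were called, 0 changed direction. Ratios that were not called could cross 1, such as Gdf15 in endothelial-like cells, aGVHD over BMT, at 1.54 as reported and 0.926 at its lowest. The count of members called higher in BMT over WT was 9 or 10 in endothelial-like and 7 to 9 in LepR stromal-like cells under the alternatives run, except that in endothelial-like cells it was 4, of 6 measured, in venular-or-sinusoidal-type cells alone. In neutrophil-like cells the BMT over WT count, 2 as reported, was 1 with at least 2000 UMIs and 1000 genes, with the stricter gate, with ratios divided by the median gene, with free RNA subtracted and with equal weight per cell, and 0 without haemoglobin, ribosomal, mitochondrial and granule genes, but 3 of 8 measured by Leiden clusters and 3 of 6 at a boundary of 1.5, where 16.3% and 25.6% of all genes were called. The fibroblast-like BMT over WT count, 1 as reported, was 2 by Leiden clusters and 3 at a boundary of 1.5, and the aGVHD over BMT count, Trp53inp1 alone, was 0 with the stricter gate. The aGVHD over BMT count, 0 as reported, was 1 in endothelial-like and 1 in LepR stromal-like cells at a boundary of 1.5, 1 in LepR stromal-like cells with ratios divided by the median gene, and 1 of 5 measured in neutrophil-like cells with free RNA subtracted, where the share of all genes called was 24.5%, against 4.98% as reported. The mean number of members per cell moved with thinning, to 2.99 in aGVHD, 2.80 in BMT and 1.06 in WT endothelial-like cells, and to 1.77 in aGVHD, 1.93 in BMT and 1.03 in WT LepR stromal-like cells. The free RNA share subtracted in neutrophil-like cells rests on haemoglobin genes alone and was too high for Cdkn1a in BMT. Beyond what the construction of each alternative shows, the cause was not tested. No paired analysis was possible because each group had 1 library. Depth limits Eda2r, Zmat3 and Sesn2 most, and the blood classes with few cells.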

Other observations

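The ATF4 and integrated stress response list holds Gdf15 and Sesn2. In endothelial-like cells 3 of its 8 measured genes were called higher in BMT than in WT, beside 4.92% of all measured genes. Beside Gdf15 and Sesn2 this was Atf3, an immediate stress factor gene, at 1382 CPM in BMT against 546 CPM in WT (2.53-fold, 2.38 to 2.69), while Atf4 gave 1.31. In LepR stromal-like cells the list had 3 of 12 called higher in aGVHD than in BMT, beside 2.66% of genes. They were Asns (5.50-fold, 4.16 to 7.36) and Psat1 (3.61-fold, 2.50 to 5.31), which make asparagine and serine, and Trib3 (3.11-fold, 1.76 to 5.64). Gdf15 in that comparison gave 1.82.

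Of the Bcl2 family beside Bax, the anti-apoptotic gene Bcl2l1 was the 1 of 7 called higher in BMT in endothelial-like cells, beside 4.92% of genes. It was at 173 CPM in BMT against 82.7 CPM in WT (2.10-fold, 1.78 to 2.48). In LepR stromal-like cells 0 of 8 were called, beside 5.84% of genes called higher and 2.40% lower. Of the senescence and secretory genes, 2 of 11 were called higher in BMT in endothelial-like cells, beside 4.92% of genes. They were the chemokine gene Ccl2 (3.16-fold, 2.45 to 4.12) and the lamin gene Lmnb1 (2.06-fold, 1.43 to 3.03). The 1 called lower was Timp1 (0.235, 0.129 to 0.414), beside 4.31% of genes. In LepR stromal-like cells 2 of 10 were called higher in BMT and 0 lower, beside 5.84% of genes called higher. They were Lmnb1, whose loss is a mark of senescence (2.25-fold, 1.63 to 3.17), and the secretory gene Igfbp3 (2.04-fold, 1.92 to 2.17).

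Outside these lists, the 5 genes whose levels most resembled the mean of the 10 targets over 33 points of class and library were Phf11d (Pearson r 0.900), Nrp1 (0.890), Map4k3 (0.885), Cxx1a (0.885) and Lpl (0.881), out of 11048 genes on the scale of log2(CPM + 10). Points of 1 library share its depth and free RNA, so this is a description. Phf11d reached 84.9 CPM in aGVHD cells and 104 CPM in BMT cells, against 19.0 CPM in WT cells, among LepR stromal-like cells. Among the members Gdf15 and Phlda3 varied most alike over these points (r 0.825) and Bax and Sesn2 least (r -0.368).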
